A study of Mus musculus with 45 samples.

Results

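Induced pluripotent stem cell (iPSC) lines made from skeletal muscle precursors (SMP) were compared with granulocyte-derived lines from the same animal after the granulocyte lines had been carried to a late passage. The comparison used 6 of the 45 arrays of the series: 3 SMP iPSC clones at passage 6 and 3 granulocyte iPSC clones at passage 16, all labelled mouse 1. The 3 granulocyte clones of mouse 1 at passage 4 gave the matching early comparison, and the question was which early differences between muscle and granulocyte lines remained after long culture. All lines came from a secondary reprogramming system, in which somatic cells carry the reprogramming factors from the start, so every group shares the same kind of factor delivery. Per the labels' protocols, cells of every group were kept in serum and LIF on a layer of irradiated mouse embryonic fibroblasts, and were preplated to remove these feeders before total RNA was taken. The labels give no genotype, sex or age of the animal. The 3 samples of a group are clones of 1 mouse, so the errors and p-values below cover the spread between clones only. Muscle precursor lines were present at passage 6 alone, so in the late comparison origin and passage cannot be told apart.

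A reprogrammed line silences the program of its somatic cell and switches on a self-sustaining network around Oct4, Nanog and Sox2. Muscle precursors are the stem and progenitor cells of skeletal muscle, known by Pax7 and Myf5 and by the surface proteins used to sort them. Granulocytes are short-lived white cells of the bone marrow, known by granule proteins such as myeloperoxidase, neutrophil elastase and lysozyme. Early-passage iPSC lines are known to keep traces of their origin in expression and DNA methylation, and continued passage is known to reduce such traces.

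The values are log2 intensities from RMA, a procedure that corrects, normalizes and summarises the probes of an array into probe sets, and 11807 genes were represented. Differences below are log2 values of the muscle precursor mean minus the granulocyte mean, ± is the standard error of the limma model fitted to all 33 arrays together, and a gene was called where its Benjamini-Hochberg adjusted p was under 0.05. RNA of the core factors was high in both groups compared, which alone does not show that a line is pluripotent. Oct4 (Pou5f1) lay between 11.33 and 11.48 in muscle precursor lines and between 11.26 and 11.45 in late granulocyte lines, Nanog at 11.84 to 11.95 against 11.53 to 12.08, and Sox2 at 11.07 to 11.20 against 11.19 to 11.33. The late differences of these 3 genes were 0.05 ± 0.13, 0.03 ± 0.26 and -0.13 ± 0.13, and none was called. The labels name no date or batch, and the number of arrays limits the precision.

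A feature of the muscle precursor arrays bears on every result below. Their group mean lay closer to that of the T cell lines of mouse 2 at passage 4 (root mean square log2 difference over all genes 0.2667) than to the late granulocyte lines of their own mouse (0.4702) or to any of the other 8 groups (0.4954 to 0.6342). Between muscle precursor and T cell passage 4 lines 6 genes were called, or 0.0508% of those tested, and 968 had an unadjusted p under 0.05. Gpbp1l1 and Flg were higher in muscle precursor lines, and Kat6a, Gli2, Trp73 and Spic were lower (all 6 were named after their values were seen). Spic, a transcription factor of the Ets family, had 5.56, 4.71 and 4.93 in the muscle precursor clones against 6.24, 7.46 and 7.21 in the T cell clones (-1.90 ± 0.35, adjusted p = 0.035). The count was 24 without granulocyte passage 16 clone 3 of mouse 2 in the fit, 22 without muscle precursor clone 1 and 11 without T cell clone 1. It was 0 without muscle precursor clone 2 or 3 or T cell clone 3 and 1 without T cell clone 2; in limma 429, 741, 960 and 427 genes then had an unadjusted p under 0.05. On the 1666 genes that separated muscle precursor from late granulocyte lines, the T cell passage 4 mean lay nearer to the muscle precursor side for 1299 (78.0%), against 40.7% for tail tip fibroblast lines at passage 4 and 5.0% to 19.8% for the other 7 groups. Those genes were selected on the 2 outer groups, so the percentages are a description. What the muscle precursor and T cell arrays share was not tested, and differences described below as higher or lower in muscle precursor lines are not thereby differences of muscle origin.

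**Figure D1:**
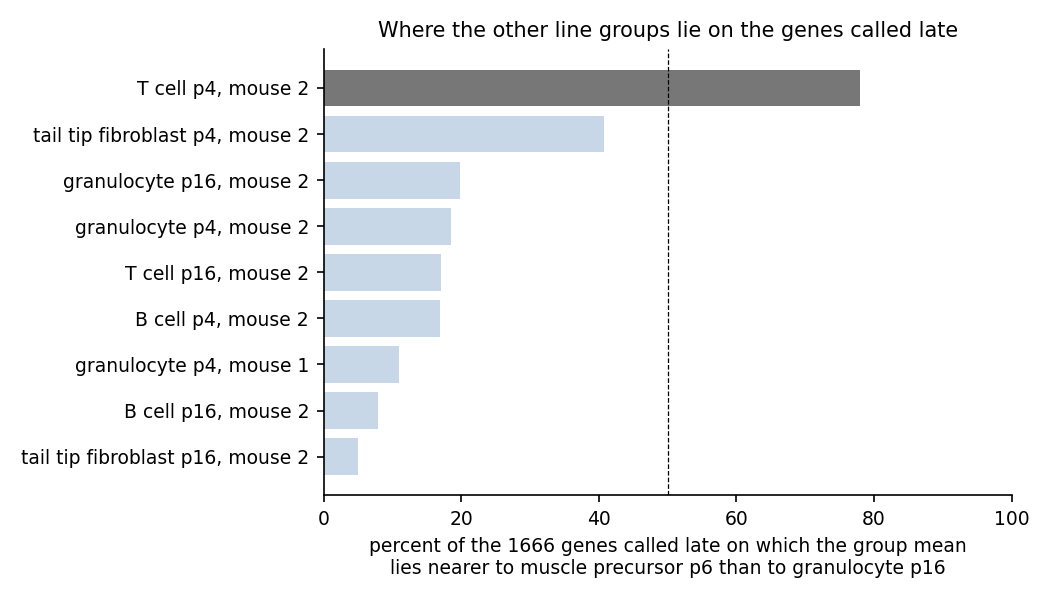
For each of the 9 other groups of arrays, bars give the percentage (x axis) of the 1666 called genes on which the group's mean RMA value was nearer to muscle precursor lines at passage 6 than to granulocyte lines at passage 16. T cell lines at passage 4 reach 78.0%, past the dashed line at 50%, and the other groups stay between 5.0% and 40.7%.

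Muscle precursor and late granulocyte lines differed at 1666 genes, 14.1% of those tested. Of these, 738 (6.25%) were higher and 928 (7.86%) were lower in muscle precursor lines, and 519 differed at least 2-fold, 264 of them higher and 255 lower. When each array was centred on its median the split became 891 higher and 734 lower, although the median difference over all genes was only 0.02. The 3 and 3 arrays did not overlap for 5517 genes (46.7%), among them 1657 of the 1666 called. The count depended on single clones. It was 771 without muscle precursor clone 2, 961 without muscle precursor clone 3 and 1003 without granulocyte passage 16 clone 1.

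Against the granulocyte lines at passage 4, the same muscle precursor arrays differed at 2562 genes (21.7%), 1364 higher (11.6%) and 1198 lower (10.1%). Of these 2562 early differences, 1277 (49.8%) were called again with the same sign against passage 16, 614 higher and 663 lower. A further 1282 were not called late, and 3 were called with the opposite sign. Most of the 1282 kept their direction: 2506 of all 2562 early calls had the same sign late. The median size of the early calls was 0.87 against passage 4, by which they had been selected, and 0.62 against passage 16. The early count was 1671 without muscle precursor clone 2 and 1688 without clone 3. Both comparisons use the same muscle precursor arrays, so the count of remaining genes is a description and their likeness is no independent evidence. The count of remaining genes was 597 without muscle precursor clone 2 and 703 without muscle precursor clone 3.

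The change itself is the contrast of passage 16 with passage 4 in the granulocyte lines, since the muscle precursor arrays cancel from it. It called 135 genes (1.14%), 101 higher (0.855%) and 34 lower (0.288%) at passage 16, and centring the arrays on their medians made this 58 higher and 61 lower (65 and 38 after quantile normalization, 92 and 62 after cyclic loess). The change was called for 71 of the 1282 early differences that were not called late, for 25 of the 1277 that remained and for 20 of the 386 differences called late only. For 1211 genes the difference was called early, was not called late, and did not change by the test, so they cannot be said to have gone. Without 1 array the passage count was 48 (granulocyte passage 4 clone 2), 83 (passage 4 clone 1), 58, 82 or 64 (passage 16 clones 1, 2 and 3), and it was 314 without granulocyte passage 16 clone 3 of mouse 2 in the fit. Over all genes, the 3 granulocyte arrays of passage 4 lay at root mean square distances of 0.6540, 0.6223 and 0.5248 from the muscle precursor mean. The 3 of passage 16 lay at 0.4990, 0.4958 and 0.5003. All late arrays were nearer than all early ones, by 0.102 on average, a difference given as a description because no permutation of 3 against 3 arrays can reach a p under 0.1000.

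**Figure D2:**
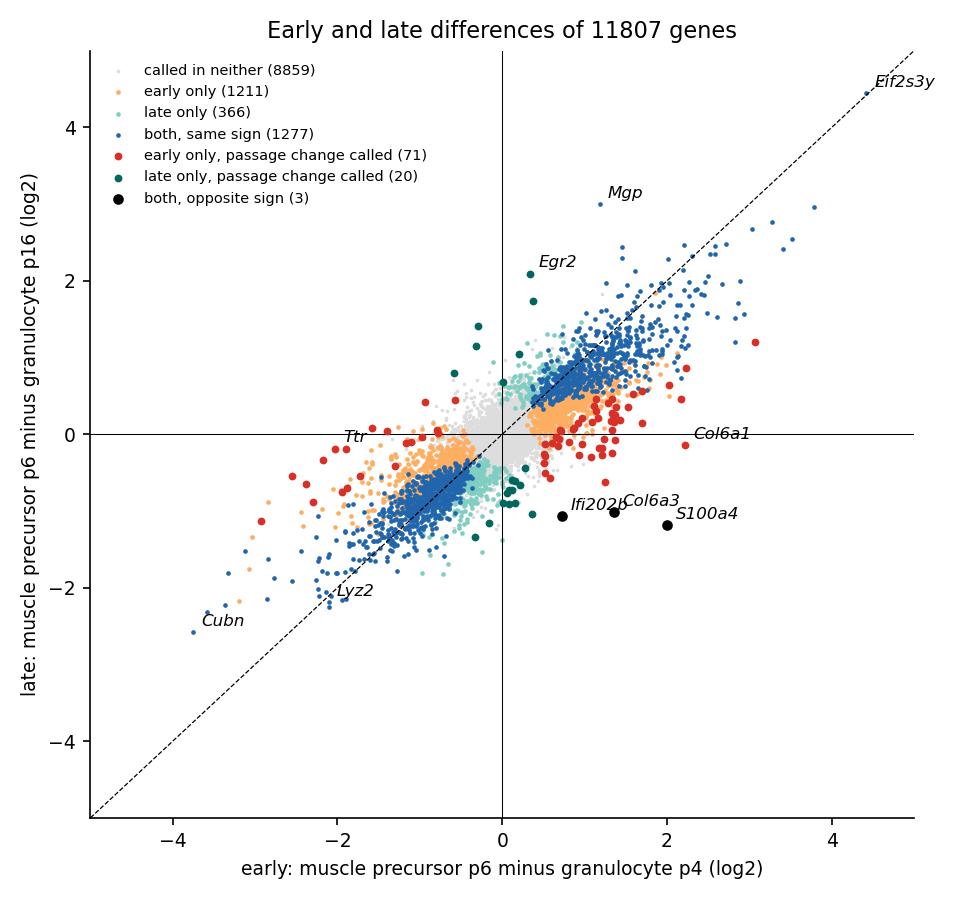
Each point is 1 of 11807 genes, with the muscle precursor minus granulocyte difference at passage 4 on the x axis and at passage 16 on the y axis, both in log2. The dashed line marks equal differences, and 1277 genes were called in both with the same sign. Col6a1 and Ttr lie near 0 on the y axis, Egr2 appears only late, and S100a4, Col6a3 and Ifi202b cross to the other sign.

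Among the 12 largest differences higher in muscle precursor lines were genes of muscle, cell surfaces, the Y chromosome and an imprinted RNA. Matrix Gla protein (Mgp), a secreted inhibitor of calcification, had 9.50, 9.86 and 9.97 in the muscle precursor clones and 6.90, 7.28 and 6.14 in late granulocyte clones, an 8.03-fold difference (3.00 ± 0.33, adjusted p = 1.85e-06). The granulocyte clones at passage 4 had 9.27, 8.44 and 8.07, so this difference was smaller early (1.18 ± 0.33) and grew with a called fall in the granulocyte lines (-1.82 ± 0.33, adjusted p = 0.00447). Myl3, a myosin light chain of slow muscle and heart, stood at 10.34, 10.96 and 10.91 against 7.40, 7.91 and 8.02 (2.96 ± 0.49, adjusted p = 0.000214). The T cell lines at passage 4 had a mean Myl3 of 10.49, within the muscle precursor range. Adssl1, the muscle form of adenylosuccinate synthase, differed by 2.41 ± 0.40.

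Meg3, a maternally expressed non-coding RNA of the imprinted Dlk1-Dio3 region, had 10.32, 9.57 and 9.96 in muscle precursor clones. It had 6.80, 7.18 and 7.56 in late and 6.98, 6.69 and 6.35 in early granulocyte clones. Tail tip fibroblast lines had a mean Meg3 of 9.95 at passage 4 and 8.85 at passage 16, beside 9.95 in muscle precursor lines. The level was thus not particular to muscle precursor lines. The late difference was 2.77 ± 0.49 (adjusted p = 0.00043), and the 4 probe sets of the gene all moved this way. Rian, the next transcript of that region, followed with 9.37, 8.77 and 8.62 against 6.59, 7.72 and 6.95 (1.84 ± 0.65), which was called early (adjusted p = 0.0424) but not late (0.0604). The early call of Rian was kept in 9 of 17 alternatives and was lost without muscle precursor clone 1, 2 or 3. Dlk1, the paternally expressed gene of the region, differed late by -0.05 ± 0.29.

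The water channel gene Aqp3 (2.67 ± 0.42), the adhesion gene Nectin4 (2.54 ± 0.33), the microtubule-binding Map4 (2.48 ± 0.26), the class I histocompatibility gene H2-Q1 (2.45 ± 0.31), the homeobox gene Gsx2 (2.35 ± 0.23) and the unnamed locus Gm9828 (2.44 ± 0.38) were also higher. Nectin4 differed by 1.52 when its 2 probe sets were averaged. Gsx2 had 5.19, 6.17 and 6.58 against 3.67, 3.68 and 3.53, and its mean in the T cell passage 4 lines was 5.55, where the 8 groups other than these and late granulocyte lines lay between 3.40 and 4.02.

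The largest difference of all was in Eif2s3y, a Y-linked translation factor gene. It had 10.79, 10.52 and 10.77 in muscle precursor clones, 7.05, 4.32 and 7.36 in late granulocyte clones and 8.02, 2.96 and 7.86 in early ones. The low granulocyte value belonged to clone 2 at both passages. The late difference was 4.45 ± 1.37 (adjusted p = 0.029), and it was not called without muscle precursor clone 1, 2 or 3 (adjusted p = 0.0641, 0.0808 and 0.0838) or without granulocyte passage 16 clone 1 or 2 (0.0513 and 0.159). A further Y-linked gene, Uba1y, had 5.74, 5.32 and 5.98 against 3.35, 3.02 and 3.24 (2.47 ± 0.51, adjusted p = 0.0017). All 9 arrays are labelled as mouse 1, and the part of the Y chromosome content of single clones in these values was not tested.

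The 12 largest differences in the other direction held 2 genes of primitive endoderm, several of early embryonic signalling and a single granulocyte gene. Cubn, the endocytic receptor cubilin of extraembryonic endoderm, had 5.95, 4.76 and 6.55 in muscle precursor clones and 8.24, 9.21 and 7.55 in late granulocyte clones (-2.58 ± 0.65, adjusted p = 0.00734). Dab2, the endocytic adaptor that works with it, had 5.86, 5.14 and 6.28 against 7.96, 8.80 and 7.45 (-2.31 ± 0.76, adjusted p = 0.041). In both genes granulocyte clone 2 was the highest at passage 16 and also at passage 4 (10.32 for Cubn and 10.25 for Dab2). Cubn was not called without muscle precursor clone 2 (adjusted p = 0.0748) or granulocyte clone 2 (0.055), and Dab2 was not called when any of the 6 arrays was left out (adjusted p 0.0506 to 0.182).

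Vegfc, a growth factor for lymphatic vessels, had 6.14, 5.28 and 5.83 against 8.13, 8.07 and 7.80 late and 8.06, 8.15 and 7.34 early. Its late difference was -2.25 ± 0.21 (adjusted p = 3.59e-07) and its early one -2.10. The Nodal antagonist gene Lefty1 (-2.11 ± 0.50), the Ets factor gene Etv1 (-2.17 ± 0.62), the homeobox gene Gbx2 (-2.14 ± 0.51), the neurofilament-related Ina (-2.14 ± 0.53), the formin gene Diaph2 (-2.02 ± 0.41), the sialyltransferase gene St6galnac3 (-2.06 ± 0.28), Zfp518b (-2.11 ± 0.29) and AF067061 (-2.23 ± 0.53) completed the group. The muscle precursor clones were not alike here. In Ina, clone 1 had 8.57 and the others 6.13 and 6.49, and in Lefty1 clone 1 had 8.24 and the others 6.62 and 6.72. Clone 1 was also the highest of the 3 in Etv1, Gbx2, Zfp518b, St6galnac3 and Diaph2, and so nearest to the granulocyte lines. Without muscle precursor clone 2 the adjusted p was 0.111 for Etv1, 0.0551 for Gbx2 and 0.0767 for Ina, and without clone 3 it was 0.112 for Etv1 and 0.0527 for Ina. Etv1 was also not called without granulocyte passage 16 clone 1 (0.0551) or 2 (0.0579). Averaging the 2 probe sets gave -1.24 for Zfp518b and -1.04 for St6galnac3.

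**Figure D3:**
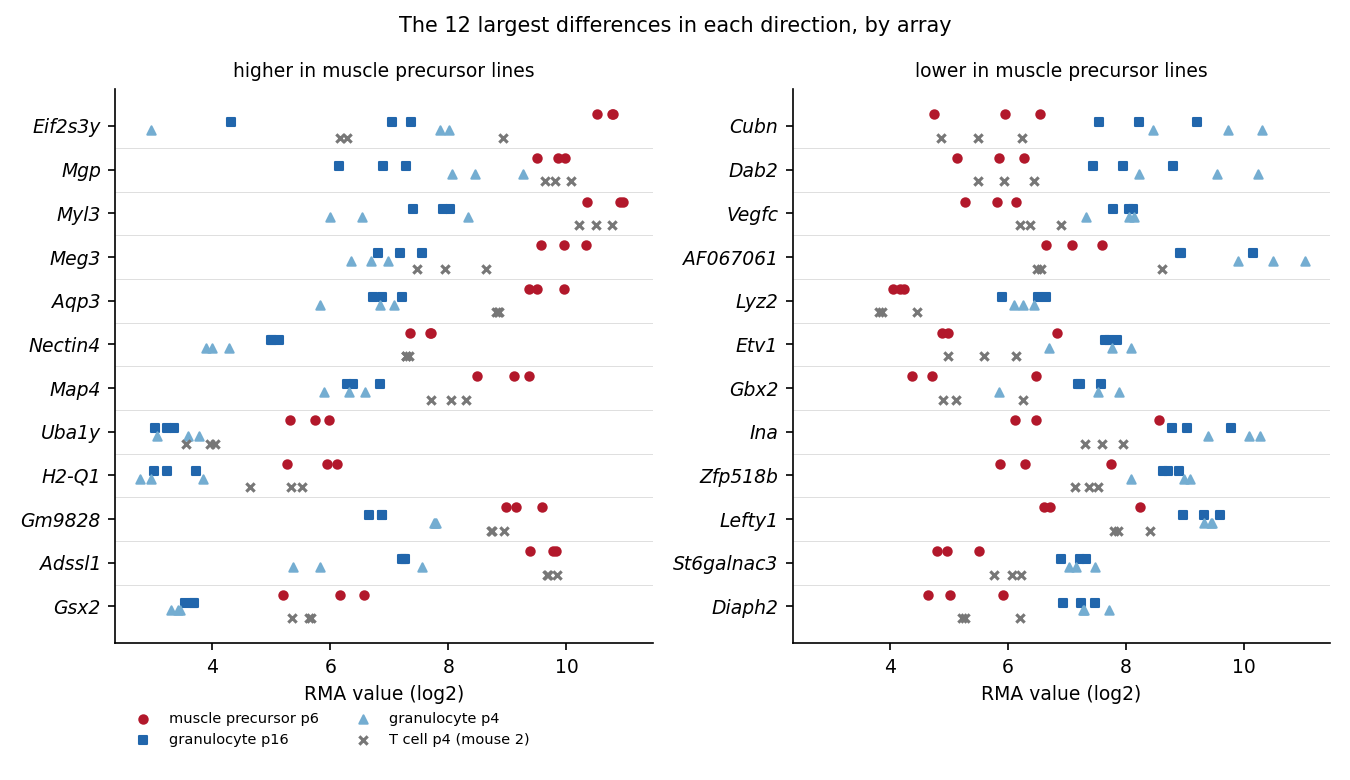
Each point is the RMA value (x axis, log2) of 1 array for the 12 genes with the largest late differences in each direction, with muscle precursor, late granulocyte, early granulocyte and T cell passage 4 clones on separate lines. The genes were chosen to have no overlap between muscle precursor and late granulocyte points, and the T cell mean lies on the muscle precursor side of the midpoint for 9 of the 12 higher and all 12 of the lower genes.

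Lists of genes of the cells of origin had 3 of 15, 3 of 24 and 1 of 27 members called late, where 14.1% of all genes were called. Of 15 measured muscle precursor genes, 2 were higher, 1 was lower and 12 were not called. Pax7 had 3.46, 3.24 and 3.55 in muscle precursor lines against 3.10, 3.27 and 3.11, Myf5 had 2.91, 2.72 and 2.70 against 2.62, 2.67 and 2.74, and Myod1 had 5.77, 5.84 and 5.32 against 5.11, 4.93 and 4.91. Only Myod1 of these was without overlap (0.66 ± 0.27), and its adjusted p was 0.106. The members called were desmin (Des), the muscle intermediate filament, at 8.48, 8.47 and 8.33 against 7.41, 7.38 and 7.08 (1.14 ± 0.20, adjusted p = 0.000429), the adhesion gene Vcam1 (0.64 ± 0.18) and, lower, the adhesion gene Ncam1 (-1.63 ± 0.26). Only 1 of the 2 probe sets of Des moved this way late, and averaged over probe sets Des differed by 0.54 and Ncam1 by -0.64. Vcam1 was not called without muscle precursor clone 2 (adjusted p = 0.12) or 3 (0.103) or granulocyte clone 1 (0.0588) or 3 (0.052).

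Of 24 genes of differentiated muscle, 3 were higher and 0 lower late in limma, where 6.25% of all genes were higher and 3046 genes had an unadjusted p under 0.05. Skeletal actin (Acta1) had 7.09, 7.66 and 7.67 against 5.92, 4.99 and 5.58 (1.97 ± 0.43, adjusted p = 0.0025). Troponin C (Tnnc1) differed by 1.32 ± 0.39 and myogenin (Myog), the factor that starts muscle differentiation, by 0.63 ± 0.18. All 3 were called early with the same sign, but the early call was kept in only 8 of 17 alternatives for Tnnc1 and 10 of 16 for Myog. Late, Tnnc1 was not called when muscle precursor clone 2 or 3 or any granulocyte clone was left out (adjusted p 0.0547 to 0.0853). Myog was not called late without muscle precursor clone 1 or 2 or granulocyte clone 1 (0.13, 0.0656 and 0.0988). In the T cell lines at passage 4 Acta1 averaged 7.35 and Des 8.19, beside 7.47 and 8.43 in muscle precursor lines, so neither set these apart from lines of another origin. Des was also at 8.54 in tail tip fibroblast lines of passage 4.

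Of 27 granulocyte genes, 1 was called late, lower in muscle precursor lines. Lysozyme M (Lyz2) had 4.25, 4.18 and 4.06 against 6.52, 6.65 and 5.91 late and 6.27, 6.10 and 6.46 early (-2.19 ± 0.34, adjusted p = 0.000102). Late granulocyte lines had the highest mean of the 11 groups (6.36), but early granulocyte lines (6.28), B cell lines at passage 16 (5.99) and tail tip fibroblast lines at passage 16 (6.03) came near. Neutrophil elastase (Elane, 3.39 to 3.71), myeloperoxidase (Mpo, 3.31 to 3.78), the integrin gene Itgam (3.64 to 3.69) and Lyz1 (3.46 to 3.79) lay low in late granulocyte lines. Their late differences ran from -0.07 to 0.13, and none was called. The median late difference was 0.10 over the muscle precursor list, 0.14 over differentiated muscle and 0.07 over the granulocyte list, beside 0.02 over all genes.

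Targets of p53, the factor that halts the cell cycle or starts cell death after damage, were called only in the higher direction. Of 20 measured, 12 were higher early and 7 late, where 11.6% and 6.25% of all genes were higher, and 0 were lower in either (limma). All 7 late calls were also early calls, 13 members were not called late, and the median late difference was 0.57 beside 0.02 over all genes. Polo-like kinase 2 (Plk2) had 11.30, 11.43 and 11.35 against 9.62, 9.71 and 9.62 (1.71 ± 0.26, adjusted p = 7.47e-05). The death receptor gene Fas (1.47 ± 0.34), the antiproliferative Btg2 (1.33 ± 0.26) and the BH3-only gene Pmaip1 (1.26 ± 0.36) were higher too. The cell cycle inhibitor p21 (Cdkn1a) stood at 11.02, 11.18 and 10.96 against 10.11, 10.34 and 9.85 late (0.95 ± 0.21) and 9.61, 9.33 and 9.998 early (1.40). The list's mean lay between 10 and 10.13 in the muscle precursor arrays, between 9.27 and 9.51 in late granulocyte arrays and between 9.01 and 9.38 in early ones. In the T cell lines of passage 4 it was 9.83 to 10.02 and in tail tip fibroblast lines of passage 4 9.67 to 10.17, while the other 6 groups reached at most 9.53. Plk2 was the only list member with a called passage change (1.16 ± 0.26, adjusted p = 0.0182), by which its difference shrank; that call was lost without any of the 3 late clones or early clone 1 or 2 (adjusted p 0.0621 to 0.155). Without muscle precursor clone 2 or granulocyte clone 3 the late call of Pmaip1 was lost (adjusted p = 0.0886 and 0.105), and the list's late count ran from 5 to 14 over the alternatives.

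Immediate early genes, which answer within minutes to growth factors, stress or handling, were also called only in the higher direction. Of 16 measured, 7 were higher early and 7 late, 5 of them in both, and 0 were lower in limma. Of all genes, 11.6% were higher early and 6.25% late. Jun had 9.58, 9.71 and 9.88 against 7.95, 8.41 and 8.74 late and 7.75, 8.15 and 8.71 early (1.36 ± 0.30, adjusted p = 0.0027). Early growth response 2 (Egr2) had 8.81, 8.98 and 9.35 against 6.82, 6.69 and 7.34 late, but the early granulocyte clones had 8.67, 8.27 and 9.18. Its difference thus opened with passage, from 0.34 to 2.10 ± 0.27 (adjusted p = 8.48e-06), through a called fall in the granulocyte lines (-1.76 ± 0.27, adjusted p = 0.000695). Egr1 followed with 12.13, 12.16 and 12.29 against 11.12, 11.06 and 11.25 late (1.05 ± 0.19) and 11.99, 11.74 and 12.25 early. Its passage change of -0.85 ± 0.19 had an adjusted p of 0.0239 and was lost without granulocyte passage 16 clone 1, 2 or 3 or passage 4 clone 1 or 3 (largest adjusted p with an array left out or another setting 0.402). The list's mean was 8.97 to 9.12 in muscle precursor arrays and 9.02 to 9.11 in T cell passage 4 arrays. It was at most 8.82 in any array of the other groups.

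Of 20 measured epithelial genes, 6 were higher, 1 was lower and 13 were not called late (6.25% of all genes were higher). Early, 7 were higher and 1 was lower (11.6% of all genes were higher). The late count of higher genes ran from 2 to 9 over the alternatives. The list's mean was 9.03 to 9.18 in muscle precursor arrays and 8.46 to 8.65 in late granulocyte arrays. It was 9.23 to 9.33 in T cell arrays and 8.75 to 9.07 in tail tip fibroblast arrays of passage 4, so the level was not particular to muscle precursor lines. Keratin 18 (Krt18) had 11.59, 11.76 and 11.91 against 10.21, 10.09 and 10.22 (1.58 ± 0.32, adjusted p = 0.00155), keratin 7 (Krt7) differed by 1.69 ± 0.43, the tight junction gene Cldn7 by 1.47 ± 0.41 and keratin 8 (Krt8) by 1.21 ± 0.40. Krt8 was not called when any of the 6 arrays was left out (adjusted p 0.0694 to 0.15), nor Cldn7 without muscle precursor clone 2 (0.0724) or granulocyte clone 1 (0.0523). Gata2, a factor of blood and trophoblast development, had 8.86, 9.41 and 9.26 against 7.66, 8.07 and 7.23 late and 6.59, 6.29 and 6.84 early (1.53 ± 0.31, adjusted p = 0.00155).

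Among 16 germ cell genes, 4 were higher and 1 was lower late, where 6.25% of all genes were higher and 7.86% lower. The germ cell transcription factor subunit gene Taf7l had 7.15, 7.70 and 7.29 against 5.15, 4.90 and 5.13 late and 5.21, 4.88 and 5.12 early (2.32 ± 0.29, adjusted p = 7.7e-06). Tex101 differed by 1.35 ± 0.26 and the synaptonemal complex gene Sycp3 by 1.13 ± 0.32. Rhox5, an X-linked homeobox gene, was lower, at 9.30, 9.01 and 9.32 against 11.36, 11.11 and 10.58 (-1.81 ± 0.48, adjusted p = 0.0111), a difference that was not called early (-0.97, adjusted p = 0.165). Without muscle precursor clone 2 or granulocyte clone 1 Rhox5 was not called (0.0593 and 0.0597), and Sycp3 was not called without muscle precursor clone 2 or 3 or granulocyte clone 1 or 2 (0.0556 to 0.0888).

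**Figure D4:**
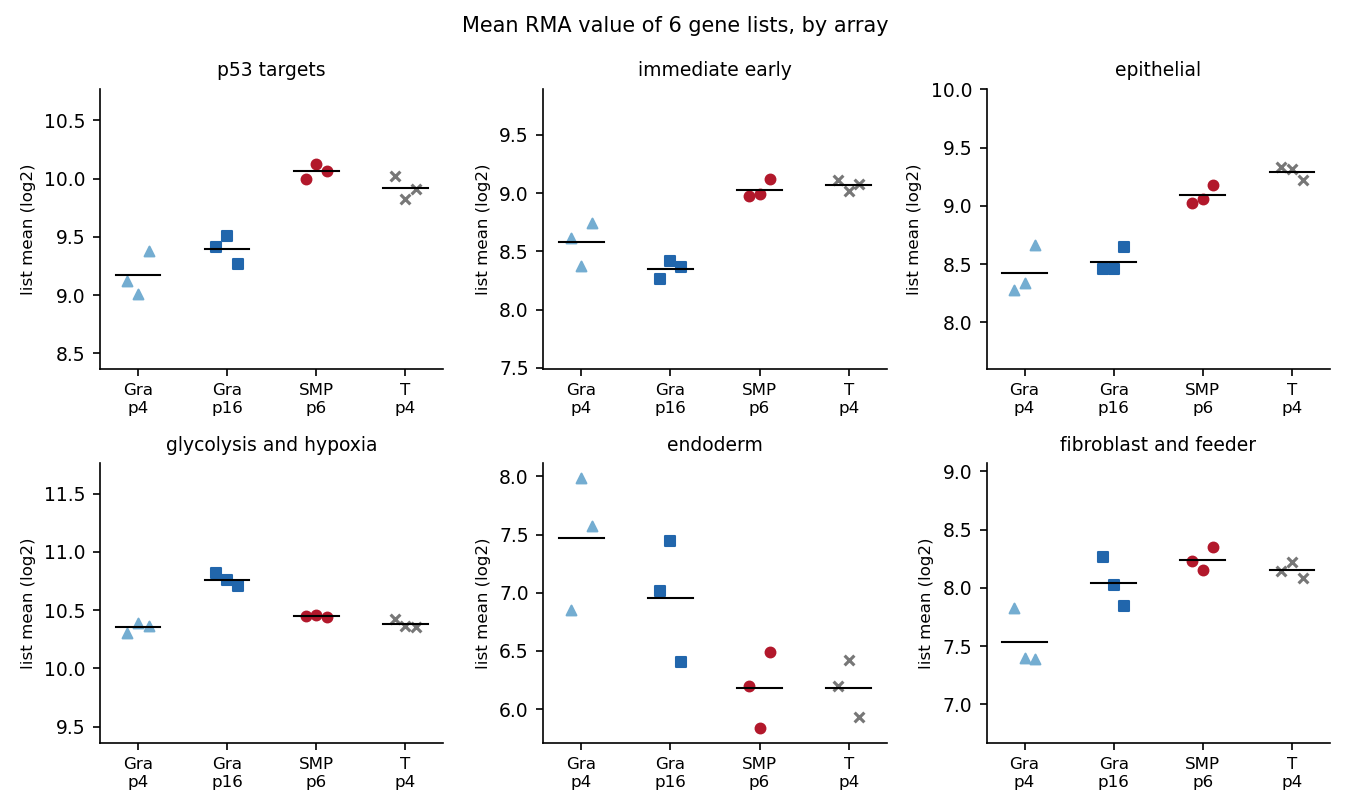
Points give the mean RMA value (y axis, log2) over the members of 6 gene lists in each array of granulocyte lines at passages 4 and 16, muscle precursor lines at passage 6 and T cell lines at passage 4, with a line at the group mean; each panel spans 2.4 log2 units. Muscle precursor arrays are above both granulocyte groups for p53 targets, immediate early and epithelial genes, and for the fibroblast list late granulocyte arrays have left the early ones (7.84 to 8.26 against 7.39 to 7.82).

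A minority of endoderm genes were lower in muscle precursor lines. Of 22 measured, 9 were lower and 1 higher early, and 5 were lower, 0 higher and 17 not called late (limma; 10.1% and 7.86% of all genes were lower early and late), with a median late difference of -0.91 beside 0.02 over all genes. Beside Cubn and Dab2, the endoderm factor gene Sox7 had 3.97, 3.87 and 4.11 against 6.14, 6.94 and 4.48 late (-1.87 ± 0.59, adjusted p = 0.0331), and laminin alpha 1 (Lama1) 8.33, 7.65 and 8.28 against 9.75, 10.15 and 9.09 (-1.58 ± 0.42). Granulocyte clones differed widely from each other on this list, with array means from 6.41 to 7.44 at passage 16 and 6.85 to 7.98 at passage 4, against 5.84 to 6.49 in muscle precursor lines. Whether more endoderm-like cells or more such RNA in each cell underlies a value cannot be told apart in bulk RNA, here or for any list. Sox7 was not called without any of the 3 muscle precursor clones or granulocyte clone 1 or 2 (adjusted p 0.0692 to 0.211), Lama1 not without muscle precursor clone 2 (0.0806) or granulocyte clone 2 (0.0692), and the list's late count of lower genes ran from 0 to 9 over the alternatives.

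Transthyretin (Ttr), a secreted carrier protein of endoderm and liver, showed a difference that closed. It had 5.61, 5.29 and 5.88 in muscle precursor lines and 6.98, 8.17 and 7.72 in early granulocyte lines (-2.03, adjusted p = 0.000142). In the late granulocyte lines it had 5.78, 6.19 and 5.36, which overlapped with muscle precursor lines (-0.19 ± 0.35). The passage change was -1.84 ± 0.35 (adjusted p = 0.00559). It was not called without granulocyte passage 16 clone 3 or passage 4 clone 2 (largest adjusted p over all settings 0.314).

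Several genes outside the core of the pluripotency network were lower in muscle precursor lines. Of 23 measured, 8 were lower early and 5 late, and 0 were higher in limma (10.1% and 7.86% of all genes were lower early and late). Dppa2, a chromatin factor of naive pluripotent cells, had 10.40, 8.62 and 8.38 against 11.16, 10.83 and 10.82 late and 11.49, 11.37 and 10.92 early (-1.81 ± 0.31, adjusted p = 0.000357). Gdf3, a ligand of the TGF-beta family, differed by -1.16 ± 0.29, the F-box gene Fbxo15 by -0.72 ± 0.21 and the nuclear receptor gene Esrrb by -0.38 ± 0.13. As in Ina and Lefty1, muscle precursor clone 1 lay nearest to the granulocyte lines in Dppa2. Esrrb was not called when any of the 6 arrays was left out (adjusted p 0.0534 to 0.197), Fbxo15 not without muscle precursor clone 2 or 3 or granulocyte clone 1 (0.0667 to 0.12) and Gdf3 not without muscle precursor clone 2 (0.0571).

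Among 8 genes of DNA methylation 3 were lower late, where 7.86% of all genes were lower. The de novo methyltransferase gene Dnmt3b had 9.98, 8.85 and 9.18 against 10.53, 10.62 and 11.04 late and 10.82, 11.07 and 10.27 early (-1.39 ± 0.33, adjusted p = 0.00496, and 0.0551 without muscle precursor clone 2). Its cofactor Dnmt3l differed by -0.74 ± 0.25 and the reader gene Mbd3 by -0.58 ± 0.17. Dnmt3l was not called without muscle precursor clone 2 or 3 or any granulocyte clone (0.0736 to 0.172), and Mbd3 not without muscle precursor clone 2 or 3 or granulocyte clone 1 or 3 (0.0528 to 0.118). Of 17 measured Polycomb genes, 1 was higher, 2 were lower and 14 were not called late, where 14.1% of all genes were called. Jarid2, a partner of the Polycomb complex that methylates histone H3, was lower at 10.47, 9.62 and 9.60 against 11.19, 11.18 and 11.14 (-1.28 ± 0.18, adjusted p = 3.85e-05). Rybp, a subunit of the other Polycomb complex, was higher at 9.37, 9.84 and 9.54 against 8.30, 8.23 and 8.28 (1.31 ± 0.17, adjusted p = 9.47e-06).

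Genes of LIF signalling and of FGF and ERK signalling followed. The shared receptor chain for LIF, Il6st, had 8.69, 8.32 and 8.48 against 9.37, 9.24 and 9.56 (-0.89 ± 0.23, adjusted p = 0.00779), and the LIF list had 3 of 11 genes lower and 1 higher. In the FGF and ERK list 4 of 13 were lower and 1 higher (7.86% of all genes were lower and 6.25% higher late). Of its feedback inhibitors, Spry4 differed by -1.01 ± 0.28 and Spred2 by -0.83 ± 0.20, while Spry1 was higher, with 8.22, 8.52 and 8.37 against 7.31, 7.34 and 7.27 (1.06 ± 0.28, adjusted p = 0.0105). Without muscle precursor clone 2 the adjusted p was 0.0568 for Il6st, 0.134 for Spry4, 0.0644 for Spred2 and 0.0606 for Spry1. Spry4 was also not called without granulocyte clone 3 (0.079). With probe sets averaged Spred2 was not called (-0.34, adjusted p = 0.105), and Spry4 differed by -0.49 and Il6st by -0.55.

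Some genes of glycolysis and the response to low oxygen were lower in muscle precursor lines late. These genes are switched on by HIF, a factor that oxygen-sensing prolyl hydroxylases mark for destruction. Of 26 measured, 5 were higher and 5 lower early, and 1 was higher, 9 were lower and 16 were not called late. Of all genes, 11.6% were higher and 10.1% lower early, and 6.25% were higher and 7.86% lower late. Whether the counts differ between early and late was not tested. The list's mean was 10.44 to 10.45 in muscle precursor arrays, 10.71 to 10.82 in late granulocyte arrays and 10.30 to 10.39 in early ones. The prolyl hydroxylase gene Egln1 had 8.93, 8.67 and 8.79 against 10.39, 10.53 and 10.01 late and 9.70, 9.82 and 9.54 early (-1.51 ± 0.18, adjusted p = 3.94e-06). Its relative Egln3 had 8.48, 8.13 and 8.28 against 10.02, 10.07 and 9.54 (-1.58 ± 0.25, adjusted p = 0.000143). The pyruvate dehydrogenase kinase gene Pdk1, at 10.61, 9.61 and 9.39 against 11.14, 11.07 and 10.93 (-1.18 ± 0.25), and hexokinase 2 (Hk2), at 10.93, 10.36 and 10.47 against 11.89, 11.81 and 11.57 (-1.17 ± 0.23), were lower too. The 4 kept their late call under each of the 17 alternatives. All were called early as well, but each lost the early call with the fibroblast covariate. Egln1 also lost it with probe sets averaged, and Hk2 without muscle precursor clone 2.

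Adrenomedullin (Adm), a secreted vasodilator peptide, was the member that was higher. It had 7.23, 7.77 and 7.67 in muscle precursor lines against 5.65, 5.51 and 5.15 early and 6.78, 6.88 and 6.50 late. Its difference was 2.12 early and 0.83 ± 0.25 late, with a called rise of 1.28 ± 0.25 in the granulocyte lines (adjusted p = 0.00559). The lactate transporter gene Slc16a3 rose too, from 9.72, 9.81 and 9.74 to 10.66, 10.49 and 10.57, against 9.85, 9.69 and 9.88 in muscle precursor lines (-0.76 ± 0.13 late). The stress-response gene Ndrg1 rose by 1.09 ± 0.22, which closed an early difference of 1.34. These 3 genes were named because they were the list's passage calls, after their values were seen. No member fell with passage, and the list's count of passage rises ran from 0 to 10 over the alternatives. Of all genes, 0.855% rose and 0.288% fell with passage.

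The promoters of 4 of these genes are shown because HIF binds the core letters ACGTG or GCGTG. Egln3, Egln1 and Hk2 were lower in muscle precursor lines late and Adm was higher. Each line gives the 250 bases before the gene's start from RefSeq, build GRCm38.p6, read 5′ to 3′ on the gene's strand, with matches to ACGTG or GCGTG on either strand in capitals (CACGT and CACGC are the same letters on the other strand, and a match on each strand can overlap).
Egln3, chr12:54203875-54204124, minus strand: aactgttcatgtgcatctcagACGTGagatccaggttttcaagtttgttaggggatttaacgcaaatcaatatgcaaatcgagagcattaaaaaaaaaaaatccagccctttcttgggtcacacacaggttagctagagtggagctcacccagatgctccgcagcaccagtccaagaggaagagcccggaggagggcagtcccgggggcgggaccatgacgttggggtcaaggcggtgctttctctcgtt
Egln1, chr8:124949255-124949504, minus strand: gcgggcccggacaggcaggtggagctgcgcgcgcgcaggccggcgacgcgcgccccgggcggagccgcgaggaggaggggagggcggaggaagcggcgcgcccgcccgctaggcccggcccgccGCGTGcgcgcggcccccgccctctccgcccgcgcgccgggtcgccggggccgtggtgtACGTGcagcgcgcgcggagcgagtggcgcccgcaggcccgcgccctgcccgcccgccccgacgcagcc
Hk2, chr6:82774455-82774704, minus strand: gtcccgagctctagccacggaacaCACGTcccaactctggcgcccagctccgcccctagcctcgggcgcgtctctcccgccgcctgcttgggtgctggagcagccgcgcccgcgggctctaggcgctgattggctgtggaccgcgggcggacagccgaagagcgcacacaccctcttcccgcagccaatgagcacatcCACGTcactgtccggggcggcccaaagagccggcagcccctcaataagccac
Adm, chr7:110627407-110627656, plus strand: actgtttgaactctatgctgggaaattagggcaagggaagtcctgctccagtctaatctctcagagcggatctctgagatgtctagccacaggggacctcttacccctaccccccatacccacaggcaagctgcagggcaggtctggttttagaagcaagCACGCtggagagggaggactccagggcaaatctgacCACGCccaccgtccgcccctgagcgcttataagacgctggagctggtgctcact
Counted from the gene's start, the matches began at positions -126 and -68 in Egln1, -226 and -52 in Hk2, -229 in Egln3 and -90 and -54 in Adm. Of the 9 members that were lower late, 8 had a match at an annotated start, and so did 12 of the 13 members with a promoter entry that were not called. Over all genes of the table the share was 41.5%. The letters thus did not separate the members that were called from those that were not, and a match is not a bound site.

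Of the 71 early differences that closed, 5 were on the fibroblast and feeder list, and collagens were among them. Of 29 measured fibroblast and feeder genes, 13 were higher and 0 lower early (limma), but 3 were higher and 2 lower late, and 6 rose and 1 fell with passage in the granulocyte lines. Of all genes, 11.6% were higher early, and 6.25% were higher and 7.86% lower late. With passage 0.855% of all genes rose and 0.288% fell. The collagen VI gene Col6a1 had 7.19, 7.30 and 7.49 in muscle precursor lines and 5.57, 4.99 and 4.78 in early granulocyte lines (2.21, adjusted p = 4.84e-06). In late granulocyte lines it had 7.71, 7.21 and 7.50, within reach of the muscle precursor values (-0.14 ± 0.29), and the passage change was 2.36 ± 0.29 (adjusted p = 4.62e-05). Col6a2 (passage change 1.57 ± 0.35), the fibrillar collagen genes Col1a1 (1.19 ± 0.27) and Col5a1 (1.23 ± 0.27) and periostin (Postn, 1.44 ± 0.28) moved the same way, and Mgp was the member that fell (Col5a1 and Postn were named after their values were seen). The passage call of Col1a1 was lost without granulocyte passage 16 clone 1 (adjusted p = 0.226) or passage 4 clone 2 (0.169) or 3 (0.12). The collagen cross-linking enzyme gene Loxl3 rose too, with 7.34, 7.28 and 7.57 against 5.96, 5.89 and 5.24 early and 7.52, 7.16 and 7.06 late (passage change 1.55 ± 0.21, adjusted p = 0.000214).

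This list marks feeder and other fibroblast cells, and its mean moved with the result: it was 8.15 to 8.35 in muscle precursor arrays, 7.84 to 8.26 in late and 7.39 to 7.82 in early granulocyte arrays. The defining genes were not near background. Col1a1 had 9.45, 9.14 and 9.43 in muscle precursor lines, 10.22, 9.23 and 9.37 in late and 9.08, 8.09 and 8.07 in early granulocyte lines. Col3a1 had 8.96, 8.71 and 9.14 against 8.65, 7.88 and 8.14 late and 8.19, 7.48 and 7.25 early, but its passage change of 0.58 ± 0.30 was not called. With the list's mean as a covariate the passage contrast called 4 genes in place of 135 and the early one 782 in place of 2562. The late one called 1585 in place of 1666. Early granulocyte arrays did not overlap with either other group in this mean. Group and covariate thus cannot be fully told apart in the early and passage contrasts, and the lower counts there do not measure feeder content. The list's own members enter that covariate, so their values under it are partly fixed by construction and are not read. The part of carried-over feeder cells in these values was not tested.

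The 3 genes called with opposite signs, which were singled out after their values were seen, moved past the muscle precursor level. S100a4, a calcium-binding protein of fibroblasts and motile cells, had 7.19, 6.51 and 6.56 in muscle precursor lines, 5.28, 4.67 and 4.29 in early and 8.14, 8.03 and 7.63 in late granulocyte lines. Its difference went from 2.00 to -1.18 ± 0.28 (adjusted p = 0.00418), with a rise of 3.18 ± 0.28 with passage (adjusted p = 7.06e-08). S100a4 is a member of the fibroblast list, so its values under that covariate are not read. Col6a3 had 5.39, 5.30 and 5.49, against 3.99, 4.04 and 4.10 early and 6.90, 6.03 and 6.30 late (-1.02 ± 0.28 late). The interferon-inducible Ifi202b had 6.16, 5.91 and 5.95, against 5.43, 5.19 and 5.21 early and 7.42, 7.21 and 6.59 late (-1.07 ± 0.24 late). For Col6a3 the late call was lost without muscle precursor clone 2 (adjusted p = 0.0699) or granulocyte clone 1 (0.123). The early call of Ifi202b (0.73, adjusted p = 0.0254) was lost without muscle precursor clone 1, 2 or 3 or granulocyte passage 4 clone 2 or 3, and with the fibroblast covariate its early difference was -0.06.

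Single genes of other kinds were among the early differences not called late. The Notch ligand gene Dll1 had 10.30, 10.74 and 10.75 in muscle precursor lines, 7.19, 7.40 and 7.995 in early and 8.96, 9.46 and 9.77 in late granulocyte lines. Its difference shrank from 3.07 to 1.20 ± 0.43 (adjusted p = 0.0649 late; passage change 1.87 ± 0.43). The late arrays still did not overlap, so Dll1 fell short of the late threshold rather than reaching the muscle precursor level. The placental hormone gene Prl2c2 (passage change 1.87 ± 0.39) and the Rab3A-interacting Rab3il1 (1.71 ± 0.39) rose as well. Hes1, the Notch target, rose too but stayed called late, with 7.77, 8.10 and 8.38 against 6.60, 6.21 and 6.49 early (1.65) and 7.38, 7.78 and 7.30 late (0.60 ± 0.16, adjusted p = 0.0129). Its late call was lost without muscle precursor clone 2 (0.0557) or 3 (0.118) or granulocyte clone 1 (0.0652) or 3 (0.0788).

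Among early differences in the other direction, the neural protease gene Prss12 had 3.87, 3.33 and 4.11 in muscle precursor lines, 5.32, 6.89 and 6.77 in early and 4.45, 4.56 and 3.96 in late granulocyte lines (passage change -2.004 ± 0.36, adjusted p = 0.00382). The eye and brain factor gene Pax6 had 5.57, 4.16 and 4.22 against 7.74, 7.56 and 7.44 early and 5.61, 5.79 and 5.94 late (-1.13 ± 0.46 late, not called). The phosphatase gene Lhpp (passage change -1.83 ± 0.34), the peptidase gene Dpp4 (-1.74 ± 0.37) and the iron exporter gene Slc40a1 (-1.70 ± 0.40) fell as well. Pax6 and Slc40a1 lost the passage call when any of the 6 granulocyte arrays was left out (largest adjusted p over all settings 0.682 and 0.598), and averaged over its 5 probe sets Pax6 changed by -0.50. The passage calls of Dll1, Rab3il1, Col6a2, Prl2c2, Lhpp and Dpp4 were each lost without at least 1 array, with largest adjusted p over all settings of 0.311, 0.208, 0.793, 0.254, 0.122 and 0.42. With the fibroblast covariate all of these passage calls were lost (that of Col6a2, a list member, is not read). Standard errors grew, and 4 of the changes stayed within 1.5 times their size. These were -1.55 ± 0.49 for Prss12, -1.87 ± 0.47 for Lhpp, 1.99 ± 0.61 for Dll1 and 1.87 ± 0.54 for Prl2c2.

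**Figure D5:**
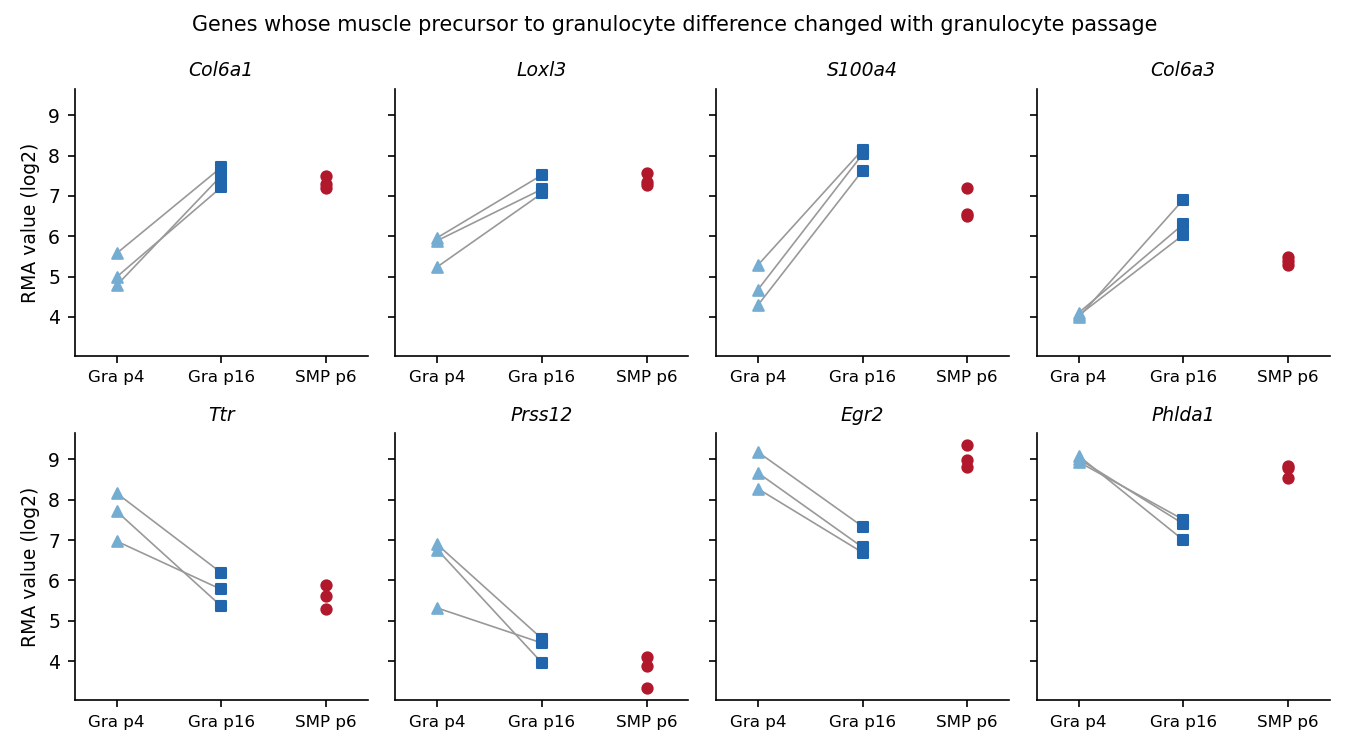
RMA values (y axis, log2) of 8 genes in granulocyte clones at passages 4 and 16, with lines joining clones of the same number, and in muscle precursor clones at passage 6. Granulocyte values rise to the muscle precursor level for Col6a1 and Loxl3 and beyond it for S100a4 and Col6a3, fall to it for Ttr and near it for Prss12, and leave it for Egr2 and Phlda1.

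Differences called only late numbered 386, and for 20 of them the granulocyte lines changed by the test. For the rest no passage change was called, so they cannot be said to have appeared with passage. Among those 20, genes without overlap of arrays in the late comparison were ranked by passage change. The first 6 that were higher in muscle precursor lines were Egr2, Phlda1, Plagl1, Dgke, Ap1s2 and Egr1. Phlda1, a gene induced by FGF and ERK signalling, had 8.54, 8.78 and 8.83 in muscle precursor lines, 8.94, 9.02 and 9.09 in early and 7.51, 7.41 and 7.004 in late granulocyte lines (1.41 ± 0.30 late; passage change -1.71 ± 0.30, adjusted p = 0.00323). The imprinted zinc finger gene Plagl1 had 9.07, 8.89 and 8.95, against 9.53, 9.06 and 9.26 early and 7.95, 8.17 and 7.33 late (1.15 ± 0.27; 0.61 over its 2 probe sets). The diacylglycerol kinase gene Dgke (0.81 ± 0.22 late) and the adaptor subunit gene Ap1s2 (1.74 ± 0.27 late) had passage changes of -1.39 ± 0.22 and -1.36 ± 0.27, the latter not called without granulocyte passage 16 clone 3 (0.0564). The late call of Dgke was lost without muscle precursor clone 2 (adjusted p = 0.0589) or granulocyte clone 3 (0.0675).

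The first 6 that were lower, ranked in the same way, were Cavin2, Inhba, Lilrb4a, Polr3gl, Clca3a2 and Usp18. The caveola gene Cavin2 had 5.94, 5.21 and 5.58 against 5.79, 5.28 and 4.60 early and 6.98, 6.76 and 6.14 late (-1.04 ± 0.26 late; passage change 1.40 ± 0.26). The activin subunit gene Inhba had 6.28, 5.53 and 5.61 against 5.77, 5.69 and 5.48 early and 7.07, 6.43 and 6.60 late (-0.90 ± 0.18 late; passage change 1.05 ± 0.18). Polr3gl, a subunit gene of RNA polymerase III, differed late by -1.16 ± 0.22, the leukocyte receptor gene Lilrb4a by -1.34 ± 0.24, the chloride channel regulator gene Clca3a2 by -0.91 ± 0.24 and the interferon-induced protease gene Usp18 by -0.90 ± 0.20. The passage calls of these last 4 were lost without 1 or more of the granulocyte arrays, and so was that of Cavin2 without granulocyte passage 16 clone 1 (largest adjusted p over all settings 0.303, 0.658, 0.88, 0.457 and 0.55). Late calls of Cavin2 were lost without muscle precursor clone 2 (0.0726) or granulocyte clone 1 (0.0613), and of Clca3a2 without muscle precursor clone 2 (0.0538) or granulocyte clone 1 (0.101) or 2 (0.0639), and with its probe sets averaged (-0.35, adjusted p = 0.171). The passage call of Lilrb4a was also lost with the replicate block (adjusted p = 0.0575) and after quantile normalization or median centring. With the fibroblast covariate the passage calls of all 12 genes that opened late were lost, but the changes of Egr2 (-1.62 ± 0.37), Phlda1 (-1.39 ± 0.41), Dgke (-1.202 ± 0.31) and Inhba (0.81 ± 0.25) stayed within 1.5 times their size, with larger errors.

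Of the 5 measured genes of the two-cell-like state, a rare state of pluripotent cultures that resembles the early embryo, all 5 were lower early (median -1.69) and 1 late. Of all genes, 10.1% were lower early and 7.86% late. The list's mean was 4.05 to 4.32 in muscle precursor arrays, 4.67 to 5.53 in late and 5.55 to 6.50 in early granulocyte arrays. Usp17la, of a deubiquitinase family, had 5.84, 5.45 and 6.33 against 9.45, 9.29 and 8.85 early and 8.52, 7.37 and 7.14 late (-1.81 ± 0.43, adjusted p = 0.00519, and 0.0577 without granulocyte clone 1). It belongs to a family of near-identical copies, so its probes may read several. Its passage change of -1.52 was not called (adjusted p = 0.0854). Of 7 CDK inhibitor genes 3 were higher early and 2 late, Cdkn1a and Cdkn1b (0.71 ± 0.23 late for the latter, with 1 of its 2 probe sets moving this way). Among all genes 11.6% were higher early and 6.25% late. Cdkn1b was not called late in 7 of the 17 alternatives, and differed by 0.25 with probe sets averaged.

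Of 23 amino acid and stress response genes, 4 were higher and 3 lower late, all 7 of them also called early (14.1% of all genes were called late). The stress factor gene Ddit3 had 9.87, 10.07 and 10.18 against 8.72, 8.90 and 9.23 (1.09 ± 0.25, adjusted p = 0.00377), and the amino acid transporter gene Slc7a3 had 9.62, 8.40 and 8.39 against 10.19, 10.24 and 10.11 (-1.38 ± 0.31, adjusted p = 0.00354). Of 24 replication and mitosis genes 3 were lower and 0 higher late (7.86% of all genes were lower). The proliferation marker Mki67 had 11.16, 10.87 and 10.99 against 11.66, 11.39 and 11.97 (-0.67 ± 0.16, adjusted p = 0.00524, and 0.0523 without granulocyte clone 3). Of 16 cholesterol synthesis, 23 ribosomal protein and 13 Wnt genes, 0 were called late by limma, with median differences of -0.09, 0.06 and 0.02. Cxcr4, Col1a2 and Ly6g, markers of muscle precursors, fibroblasts and granulocytes, were not analysed here.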

How the data were processed

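The 33 arrays hold 11 groups of 3 clones at passages 4, 6 and 16; the 12 arrays of other passages among the 45 of the series were not used here. The authors deposited log2 intensity values from RMA, per the submitters' processing notes (2.261 to 14.081); the version, background settings and any batch step are not given in the sources used here. Of 22690 probe sets, 18003 had 1 gene symbol, 287 had several and 4400 had none in the platform annotation. A gene was represented by its probe set with the highest mean over all arrays, giving 11807 genes (4150 with several probe sets).

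A mean per group was fitted to all 33 arrays with limma 3.58.1 (lmFit and eBayes, R 4.3.3, 22 residual and 4.91 prior degrees of freedom), and p-values were Benjamini-Hochberg adjusted over 11807 genes at 0.05. Named genes were the 12 largest called late differences in each direction without overlap of arrays, the 6 in each direction that remained (ranked by the smaller difference), that closed with passage or that opened with passage, up to 4 called members of each of 35 gene lists (583 of 681 entries measured), and a fixed set of pluripotency, origin, imprinted and fibroblast genes; others are said to be chosen on their values. The comparison and the lists were chosen with earlier results of these data known. The fit was tested on simulated data. Deviations of same-numbered granulocyte clones at passages 4 and 16 correlated at 0.3871, 0.2111 and 0.1830 over 2000 genes, so clone numbers pair these samples. The main passage contrast did not use this pairing. Same-numbered muscle precursor and granulocyte clones correlated at 0.0964, 0.0748 and 0.1015 for passage 16. For passage 4 the values were 0.3672, -0.2960 and 0.3058. The labels do not pair muscle precursor with granulocyte clones. Alternatives covered the arrays in the fit, a replicate block, normalization, a filter on dim genes at log2 of 6, probe set choice, the variance model, a fibroblast covariate and leaving out each clone.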

Additional observations from a re-analysis of the deposited data

How the results depend on the processing

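Fits to fewer arrays called more genes: 3679 late, 4424 early and 332 with passage on the 6 arrays compared, and 3588, 4500 and 702 on the 9 arrays of mouse 1, where 2700 early differences remained late. Tested by probe set, 2921 were called late, 4669 early and 2213 in both. Past 2-fold the counts were 519 late, 965 early, 72 with passage and 404 remaining. The fibroblast covariate left 782 early, 4 passage and 617 remaining calls, and without granulocyte passage 16 clone 3 of mouse 2 the passage count was 314. Leaving out 1 clone gave 771 to 1547 late, 1671 to 2412 early, 48 to 119 passage and 597 to 1256 remaining calls. With the replicate block, 1627 late, 2567 early and 148 passage calls were made and 1282 remained. The block shares each clone number over all groups of a mouse, muscle precursor lines included. A pairing of the granulocyte lines alone was not fitted.

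Between muscle precursor and T cell lines 2 genes were called on 6 arrays, and 2 each after quantile, loess and median scaling, 24 without that clone of mouse 2, 1 by probe set and 0 with the block (limma, 391 at an unadjusted p under 0.05), with 0 to 22 when 1 clone was left out. The share of genes with T cell lines nearer was 81.5% after quantile normalization, 80.7% after loess, 81.5% after centring and 75.5% above log2 of 6. The distance difference stayed between -0.0956 and -0.1195. With the fibroblast covariate the early difference turned for Ifi202b (-0.0611) and Col1a1 (-0.59). Col1a1 is a member of the fibroblast list, so its value under that covariate is partly fixed by construction and is not read. With probe sets averaged the late difference of H2-D1 became 0.0895. The cause was not tested for Ifi202b or H2-D1. The T cell and distance comparisons were added after the data were seen. No outlier test applies to groups of 3, and 3 clones a group limit the precision.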
